A study of Mus musculus with 22 samples.

Results

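The fibulins are a family of secreted matrix glycoproteins, and 6 of the 30170 gene rows in the count table belong to it: Efemp1, Efemp2, Fbln1, Fbln2, Fbln5 and Fbln7. The family was chosen by the RNA level of Efemp1, which was far below that of W330R when the DNA methyltransferase DNMT3A carried the double mutation W330R-R181E, so that difference is the ground of the choice and is given without a test. The RNA was sequenced from C3H 10T1/2 cells, a mouse mesenchymal line of fibroblast-like cells that can be turned into adipocytes, and the lines compared express DNMT3A1 as WT, W330R or W330R-R181E. There were 22 libraries from 11 conditions with 2 libraries each. WT and W330R were sampled undifferentiated, without treatment, and on days 2, 4 and 6 of adipocyte differentiation. The inducing medium held isobutylmethylxanthine, dexamethasone, insulin and troglitazone, and was replaced after day 2 by medium with insulin. The double mutant was sampled on days 2, 4 and 6 and has no undifferentiated libraries here. Sample labels call the double mutant R181E, whereas the names of its count columns say R181A, so the exact second substitution cannot be told from the data. The labels do not say whether a genotype was 1 line or several, whether the cells kept their own Dnmt3a, or whether replicates were separate cultures. The p-values therefore measure the spread between these libraries, which may be technical.

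Fibulins are built from repeated calcium-binding EGF-like modules and share a fibulin module at the C-terminus. The short fibulins Efemp1 (fibulin-3), Efemp2 (fibulin-4) and Fbln5 (fibulin-5) are known for the assembly of elastic fibres. In these, elastin is laid on a scaffold of fibrillin microfibrils and cross-linked by lysyl oxidases. Fbln1 and Fbln2 are the longer members and bind basement membrane proteins, fibronectin and proteoglycans such as versican. Fbln7 is a short member known as a cell adhesion protein of developing teeth and cartilage.

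Because DNMT3A methylates cytosine in CG dinucleotides, the stretch of 250 bases before the RefSeq start site is shown for the 3 members whose RNA levels are treated at most length, with every CG in capitals. Methylation itself was not analysed here. The sequences are those of RefSeq on GRCm38.p6, read 5′ to 3′ on the strand of the gene, all on the + strand: Efemp1 at chr11:28852955-28853204, Fbln2 at chr6:91212514-91212763 and Fbln7 at chr2:128863682-128863931.
Efemp1: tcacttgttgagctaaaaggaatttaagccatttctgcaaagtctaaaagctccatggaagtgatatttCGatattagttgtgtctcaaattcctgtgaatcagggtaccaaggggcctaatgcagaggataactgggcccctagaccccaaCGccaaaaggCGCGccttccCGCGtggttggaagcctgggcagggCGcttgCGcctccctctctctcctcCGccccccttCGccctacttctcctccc
Fbln2: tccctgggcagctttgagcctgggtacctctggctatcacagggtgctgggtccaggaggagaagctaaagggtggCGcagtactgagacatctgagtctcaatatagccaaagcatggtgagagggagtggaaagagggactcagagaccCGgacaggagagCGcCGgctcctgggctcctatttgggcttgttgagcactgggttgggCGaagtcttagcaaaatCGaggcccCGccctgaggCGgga
Fbln7: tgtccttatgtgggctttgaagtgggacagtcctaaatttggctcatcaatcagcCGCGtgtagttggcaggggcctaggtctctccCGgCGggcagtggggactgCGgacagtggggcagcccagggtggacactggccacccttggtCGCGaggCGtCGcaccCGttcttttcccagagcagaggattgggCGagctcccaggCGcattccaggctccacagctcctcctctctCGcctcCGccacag
The Efemp1 window held 10 CG, with an observed over expected ratio of 0.57. The Fbln2 window held 8 CG (ratio 0.39) and the Fbln7 window 14 (ratio 0.561). Over 32851 such windows of all genes the median was 6 CG, and 37.8%, 43% and 29.4% of them held as many CG or more as Efemp1, Fbln2 and Fbln7. The members' windows not shown held 15, 27 and 33 CG for Efemp2, 7 and 14 for Fbln1 and 21 and 6 for Fbln5. The letters TTGCNNAA, a core of the site of C/EBP factors of adipocyte differentiation, were found on either strand in 9.56% of all windows and, among the 10 windows of the 6 members, in that of Efemp1. The longer motifs searched, on both strands too, for the PPAR-RXR dimer (AGGTCA, 1 free base, AGGTCA) and for the glucocorticoid receptor (AGAACA, 3 free bases, TGTTCT) were in 0.0335% and 0.00913% of all windows and in 0 of the members' windows. A match of letters is a description of the sequence and does not show that a factor binds there.

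Libraries held between 8859501 and 47453908 counts, with medians of 18482524 in WT, 20444686 in W330R and 19047875 in the double mutant. Of the genes, 14520 passed the filter on low counts and all 6 members were among them, although Fbln1 passed it with 4 of the 22 libraries over the cutoff, all of them WT and none a mutant. Levels are given as CPM, counts scaled to a common library size, with TMM-scaled library sizes, and levels of different genes are compared only as CPM per kilobase of the longest transcript in GENCODE M21. A count of 3 per library is taken as the floor, for counting error only. Fibroblast markers summed to 20520 to 23250 CPM in undifferentiated cells. Over days 2 to 6 they summed to 3374 to 14940 CPM in WT, 3935 to 16650 in W330R and 2842 to 15360 in the double mutant. Not every one of them was abundant throughout, since Dcn and Lum fell to 3 counts and Thy1 to 0 in their lowest library. Adipocyte markers summed to 51.5 to 59.6 CPM in undifferentiated cells, and over days 2 to 6 to 2876 to 9229 CPM in WT, 1441 to 2528 in W330R and 1701 to 4348 in the double mutant. In bulk RNA, fewer cells of a type and less RNA per cell cannot be told apart.

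In WT and W330R, Efemp1 was expressed in undifferentiated cells, was lower on day 2 and was higher again by day 6, to a different extent. The double mutant, which has no undifferentiated libraries, did not exceed 0.883 CPM on days 2 to 6. In undifferentiated WT the levels of Efemp1 were 12.8 and 13.1 CPM in replicates 1 and 2, and in undifferentiated W330R 18.2 and 18.5 CPM. On day 2 WT was at 0.453 and 0.295 CPM, W330R at 3.85 and 1.37 CPM, and the double mutant at 0.246 and 0.0990 CPM, which is 3 and 2 reads. On day 4 WT was at 2.53 and 1.45 CPM, W330R at 14.3 and 6.56 CPM and the double mutant at 0.486 and 0.261 CPM. The 3 genotypes were thus in the same order on both days, with no overlap between the libraries of different genotypes within a day. On day 6 WT reached 4.65 and 3.65 CPM, W330R 23.9 and 13.6 CPM and the double mutant 0.883 and 0.325 CPM, again without overlap. The mean on day 6 in W330R, 18.8 CPM (SD 7.30, n = 2), was close to the undifferentiated mean of the same genotype, 18.4 CPM (SD 0.210, n = 2), whereas WT reached 4.15 CPM (SD 0.711, n = 2) against 12.95 CPM (SD 0.260, n = 2) undifferentiated. In the order of the 11 conditions, W330R on day 6 and undifferentiated W330R stood first with overlapping libraries. The double mutant held 3 of the 4 lowest places, and WT on day 2 lay between the double mutant on day 6 and on day 4, with libraries overlapping both. Replicate 1 was above replicate 2 in 9 of the 9 conditions from day 2 on, and genotypes were therefore also compared within a replicate number.

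**Figure D1:**
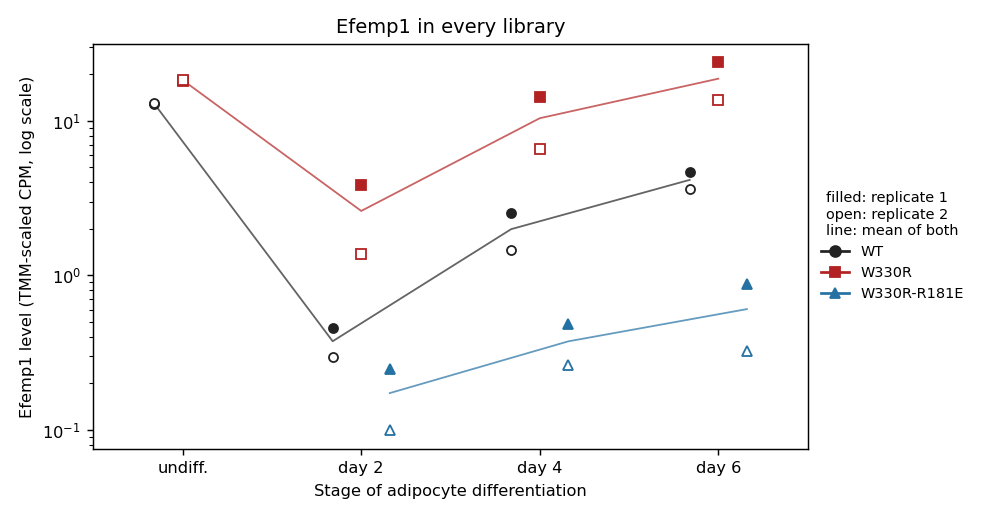
Efemp1 level in CPM with TMM-scaled library sizes (log scale) in each of the 22 libraries, by stage on the horizontal axis. Filled and open symbols are replicates 1 and 2 and lines join the means. From day 2 on the libraries of W330R lie above those of WT and those of W330R-R181E below, and on day 6 the double mutant is at 0.883 and 0.325 CPM against 23.9 and 13.6 CPM in W330R.

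Differences of Efemp1 that involve differentiating mutant libraries are given as a description, since those libraries led to its choice. Averaged over days 2, 4 and 6 the log2 fold change was 2.46 ± 0.33 (standard error of the edgeR fit) for W330R against WT, -4.52 ± 0.37 for the double mutant against W330R and -2.06 ± 0.40 for the double mutant against WT. The double mutant therefore stood below WT and not between WT and W330R. It was the lower of the pair in 6 of 6 pairs of libraries with the same day and replicate number, against W330R as well as against WT. Within replicate 1 the log2 differences of W330R minus WT, double mutant minus W330R and double mutant minus WT were 2.54, -4.25 and -1.71, and within replicate 2 they were 1.957, -4.04 and -2.08. With the reads of both replicates pooled, W330R exceeded the double mutant 15.6-fold on day 2, 26.5-fold on day 4 and 26.3-fold on day 6. WT exceeded the double mutant 2.32-fold, 5.39-fold and 5.24-fold on the same days, and W330R exceeded WT 6.72-fold, 4.91-fold and 5.01-fold. The day 2 ratios over the double mutant rest on 5 reads in it, so counting error alone leaves their size loosely known. For WT over the double mutant that error spans 0.759 to 8.39 (95% exact counting interval). No interval is given for W330R over the double mutant, the difference that chose the gene.

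3 comparisons of Efemp1 use none of the libraries that chose it. In undifferentiated cells, W330R was 0.50 ± 0.50 above WT on the log2 scale, which did not pass the edgeR quasi-likelihood test with Benjamini-Hochberg adjustment (adjusted p = 0.809), and 1.75% of the 14520 genes did. The spread in that test is shared with the more variable differentiating libraries, and a fit of the 4 undifferentiated libraries alone gave 0.51 with an adjusted p of 0.00964, in a fit that called 27.8% of all genes. In WT, Efemp1 rose from day 2 to day 6 by 3.49 ± 0.64 on the log2 scale (adjusted p = 0.00139, edgeR quasi-likelihood with Benjamini-Hochberg adjustment). In WT it also fell by 5.13 ± 0.65 on the log2 scale from undifferentiated cells to day 2 (adjusted p = 1.92e-05, same test). Undifferentiated libraries follow another naming pattern than the rest in the count columns, and no stage holds both patterns. Differences between undifferentiated cells and any later day therefore cannot be told apart from a batch, for Efemp1 as for the other members. For the mutants the same steps are given without a test. From day 2 to day 6 Efemp1 was higher by 2.86 ± 0.54 in W330R and by 2.07 ± 0.78 in the double mutant, with a range of 1.01 to 2.73 in the latter when 1 library was left out. W330R on day 2 was at -2.83 ± 0.54 relative to undifferentiated W330R.

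Efemp2, whose product binds lysyl oxidase and elastin, was measured with 559 to 10262 counts and differed from Efemp1 in that the double mutant was not below WT. On day 2 WT was at 44.3 and 33.6 CPM, W330R at 63.2 and 88.6 CPM and the double mutant at 45.9 and 35.3 CPM. By day 6 WT was at 170 and 87.2 CPM, W330R at 200 and 195 CPM and the double mutant at 205 and 124 CPM. W330R was above WT in 6 of 6 pairs with no overlap on any of the 3 days, while the double mutant overlapped W330R on days 4 and 6 and WT on days 2 and 6. Averaged over days 2 to 6, Efemp2 was higher in W330R than in WT by 0.79 ± 0.17 on the log2 scale (adjusted p = 0.00384, edgeR quasi-likelihood with Benjamini-Hochberg adjustment), and by 0.40 within replicate 1 and 1.24 within replicate 2. For the double mutant against WT the value was 0.31 ± 0.17 (adjusted p = 0.262, edgeR quasi-likelihood with Benjamini-Hochberg adjustment), and against W330R it was -0.48 ± 0.17, given without a test.

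Fbln2, a long fibulin of basement membranes and vessel walls, had the highest level per kilobase of the family in undifferentiated WT. It stood at 134 CPM per kilobase against 31.6 for Efemp2, 14.8 for Fbln5, 6.36 for Efemp1, 0.411 for Fbln7 and 0.194 for Fbln1. On day 2 WT was at 116 and 86.3 CPM, W330R at 169 and 134 CPM and the double mutant at 82.8 and 75.9 CPM. On day 6 the levels were 577 and 258 CPM in WT, 755 and 567 CPM in W330R, and 430 and 288 CPM in the double mutant. W330R had the highest mean on each day, with an overlap with WT on day 6. The double mutant lay below W330R without overlap on the 3 days and overlapped WT on days 4 and 6. The average of W330R over WT was 0.70 ± 0.22 on the log2 scale (adjusted p = 0.0306, edgeR quasi-likelihood with Benjamini-Hochberg adjustment), and 0.51 and 1.00 within replicates 1 and 2. This call was lost in a fit of WT and W330R days 2 to 6 alone (adjusted p = 0.0558) and when any one of WT day 2, 4 or 6 replicate 2 or W330R day 2, 4 or 6 replicate 1 was left out (adjusted p 0.0678 to 0.103). The double mutant differed from WT by -0.14 ± 0.22 (adjusted p = 0.739, edgeR quasi-likelihood with Benjamini-Hochberg adjustment) and from W330R by -0.84 ± 0.23, without a test.

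Fbln1, the other long fibulin, was close to the limit of detection, with 0 to 18 counts per library and 12 libraries at 3 counts or fewer. WT had 3 and 8 reads on day 2, 5 and 3 on day 4, and 12 and 13 on day 6. W330R had 1 and 2, then 0 and 1, then 6 and 1 reads on the same days. The double mutant had 0 reads in both libraries of day 2, then 1 and 4, then 8 and 1. After scaling to library size, every W330R library was below every WT library of the same day. Pooled over days 2 to 6, WT with 44 reads exceeded W330R with 11 reads 6.28-fold and the double mutant with 14 reads 3.74-fold. The ratio of the double mutant to W330R, 1.68, had a 95% exact counting interval of 0.707 to 4.08, which covers counting error only. Because Fbln1 passed the filter on low counts through WT libraries alone, a test against WT would favour a lower level in the mutants. No test or interval against WT is therefore given over days 2 to 6. The order of the libraries and the pooled ratios against WT lean the same way and are a description only. A fitted fold change is no measure of size at such counts, since it depends on the prior count.

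Fbln5, which links elastin to integrins at the cell surface, passed the edgeR test in 0 of the 13 contrasts tested in the shared fit, with 0 at an unadjusted p under 0.05 and 0 called by DESeq2. The 2 libraries of a condition were often far apart. Fits of 1 comparison alone called it in undifferentiated cells and in W330R from undifferentiated cells to day 2 (log2 fold change -1.15, edgeR adjusted p = 0.00177). On day 4 WT was at 45.9 and 10.7 CPM, W330R at 21.1 and 24.7 CPM, and the double mutant at 70.4 and 37.1 CPM. On day 6 WT was at 45.9 and 16.5 CPM, W330R at 27.5 and 27.0 CPM, and the double mutant at 58.3 and 41.6 CPM. The W330R libraries lay between the WT replicates on each of days 2, 4 and 6. W330R minus WT was -1.08 within replicate 1 and 0.72 within replicate 2, so its direction turned with the replicate number. The fitted average was -0.42 ± 0.41 (adjusted p = 0.48, edgeR quasi-likelihood with Benjamini-Hochberg adjustment). The double mutant was above WT by 0.75 ± 0.41 (adjusted p = 0.261, edgeR quasi-likelihood with Benjamini-Hochberg adjustment). It was the higher in 6 of 6 pairs with the same day and replicate number, but its libraries overlapped those of WT on every day. Against W330R the double mutant was higher by 1.17 ± 0.42, without a test.

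Fbln7 showed a pattern opposite to that of Efemp1 on average, carried mainly by replicate 1. Its levels in WT were 11.1 and 0.984 CPM on day 2, 27.0 and 5.98 on day 4 and 43.1 and 10.1 on day 6. In W330R they were 1.18 and 0.609, 3.499 and 3.67, and 8.34 and 10.4 CPM. In the double mutant they were 15.6 and 0.644, 46.1 and 7.65, and 65.0 and 18.3 CPM. Replicate 1 was several times replicate 2 in WT and the double mutant on every day, and in W330R the pair was close from day 4 on. W330R was below WT by 2.15 ± 0.76 on average (log2 fold change -2.15, adjusted p = 0.0462, edgeR quasi-likelihood with Benjamini-Hochberg adjustment), with -2.80 within replicate 1 and -0.42 within replicate 2. The call was lost on leaving out replicate 1 of WT day 2 (log2 fold change -1.29, adjusted p = 0.233), day 4 (-1.66, adjusted p = 0.123) or day 6 (-1.68, adjusted p = 0.117), or any of the 6 W330R libraries of days 2 to 6 (adjusted p 0.0775 to 0.119). The double mutant exceeded W330R by 2.75 ± 0.77, without a test, and by 3.42 within replicate 1 and 0.64 within replicate 2. Against WT the double mutant differed by 0.60 ± 0.70 (adjusted p = 0.63, edgeR quasi-likelihood with Benjamini-Hochberg adjustment), and this value turned to -0.60 without replicate 1 of the double mutant on day 2 and to -0.01 without replicate 1 on day 4.

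**Figure D2:**
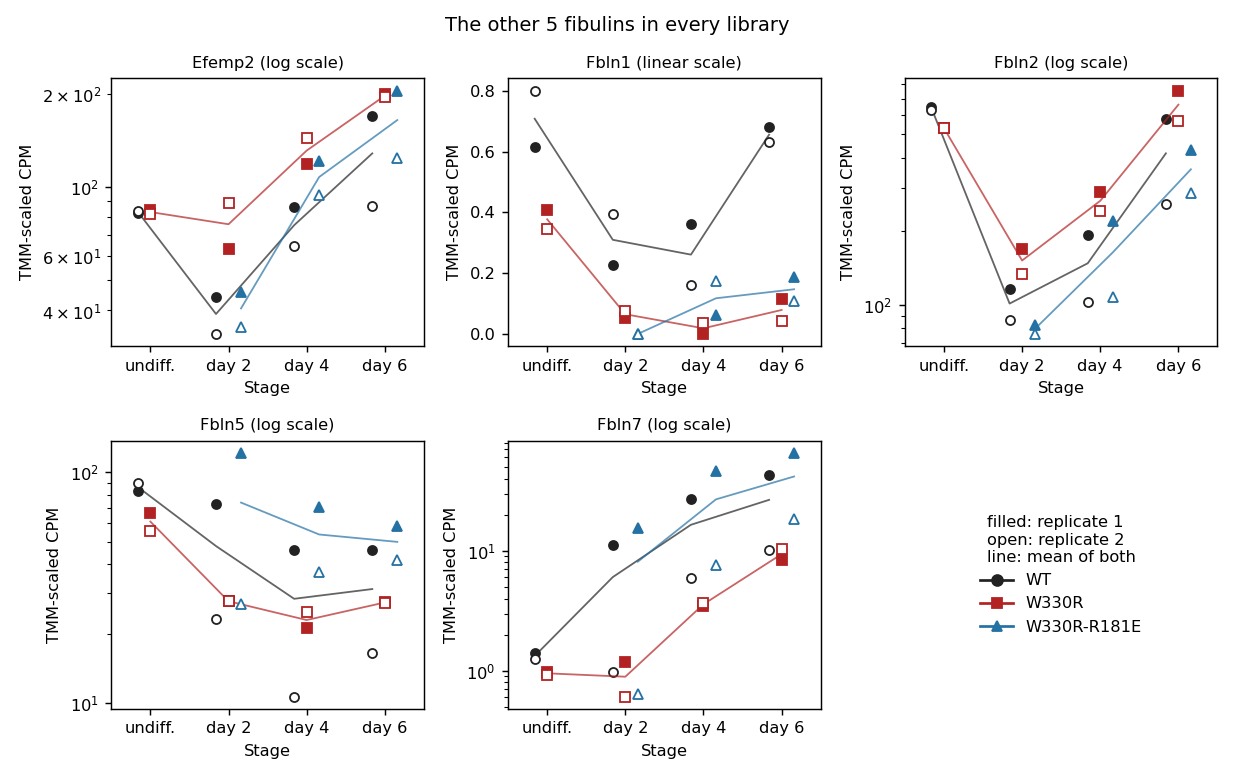
Levels of the other 5 fibulins in CPM with TMM-scaled library sizes in each library, by stage (log scale, except Fbln1 on a linear scale), with filled and open symbols for replicates 1 and 2 and lines through the means. The means of Efemp2 and Fbln2 are highest in W330R on each day, Fbln1 is at 18 counts or fewer, and Fbln7 in WT and the double mutant is split by replicate, with 43.1 and 10.1 CPM in WT on day 6.

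Across the family, with Efemp1 and Fbln1 set aside for the reasons given, Efemp2 and Fbln2 were called higher and Fbln7 lower in W330R than in WT over days 2 to 6. That is 3 of 4 members where 29% of all genes were called, 14.3% higher and 14.8% lower. None of the 3 was called on a single day (edgeR adjusted p 0.103 to 0.507). Of the 14520 genes, 445, 891 and 1095 were called on days 2, 4 and 6. The calls of Fbln2 and Fbln7 were also lost in fits without 1 library, as given above. In the double mutant against WT, 0 of these 4 were called by edgeR and 9.57% of all genes were, with 0 of the 4 at an unadjusted p under 0.05 and 0 called by DESeq2. In undifferentiated cells 0 of the 6 members passed between W330R and WT in the shared fit, with 0 at an unadjusted p under 0.05 and 0 called by DESeq2. With Fbln1 left out, the adjusted p was 0.809 or more (edgeR quasi-likelihood with Benjamini-Hochberg adjustment). Of the 4 libraries that carried Fbln1 through the filter, all WT, 2 were undifferentiated. The fit of the undifferentiated libraries alone, in which 27.8% of all genes were called, also called Fbln2 (log2 fold change -0.27, adjusted p = 8.09e-04) and Fbln5 (-0.49, adjusted p = 0.00228). The double mutant against W330R, the comparison that led to the choice of the family, had 17.2% of all genes called. There the members' log2 differences ran from -4.52 for Efemp1 through -0.84 for Fbln2 and -0.48 for Efemp2 to 1.17 for Fbln5 and 2.75 for Fbln7. The comparisons share libraries: those of W330R enter 2 of them and those of WT 2.

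**Figure D3:**
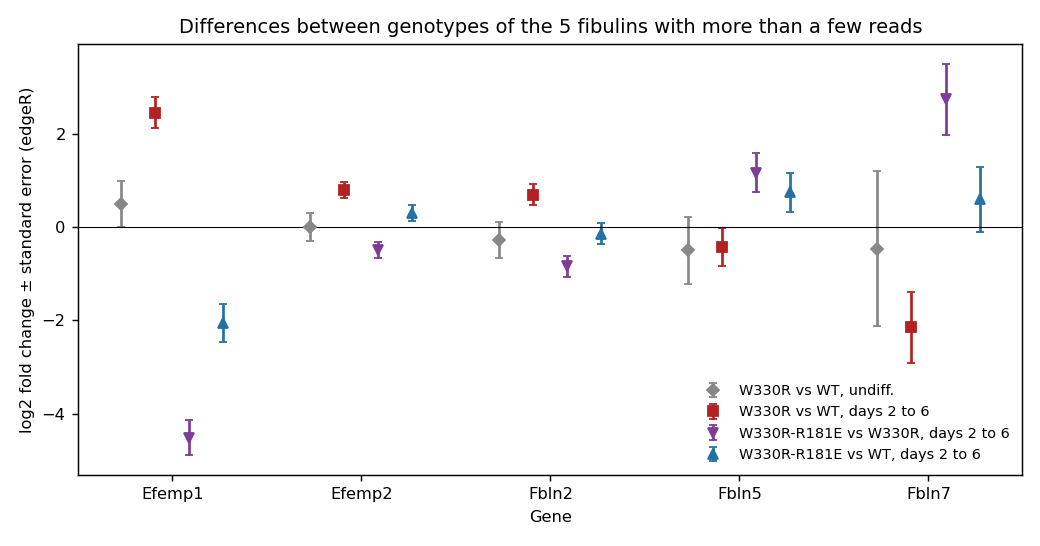
Log2 fold changes with standard errors from the edgeR fit for 5 fibulins, between W330R and WT in undifferentiated cells and between the 3 genotype pairs averaged over days 2, 4 and 6. Fbln1 is left out because of its low counts. Efemp1 stands at 2.46 for W330R against WT and at -4.52 for the double mutant against W330R, and Fbln7 at -2.15 and 2.75.

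Efemp2 and Fbln2 rose from day 2 to day 6 in each of the 3 genotypes. Efemp2 rose by 1.72 ± 0.31 in WT (adjusted p = 0.00122), 1.38 ± 0.30 in W330R (adjusted p = 0.00492) and 2.03 ± 0.31 in the double mutant (adjusted p = 6.74e-04), on the log2 scale of the edgeR quasi-likelihood fit. Fbln2 rose by 2.05 ± 0.40 in WT (adjusted p = 0.0023), 2.12 ± 0.40 in W330R (adjusted p = 0.00208) and 2.18 ± 0.41 in the double mutant (adjusted p = 0.00228), on the same scale. The Efemp2 call in W330R was lost without replicate 1 of W330R day 2 (1.16, adjusted p = 0.0663, edgeR), and in fits of the 2 conditions alone the calls in the double mutant were lost for Efemp2 (adjusted p = 0.0662) and Fbln2 (adjusted p = 0.0551). Together with Efemp1 in WT, these made 3 of 6 members called in WT against 26.6% of all genes, and 2 of 5 tested in W330R against 25%. Fbln1 is among the members counted here, though it passed the filter through WT libraries alone. With Fbln1 at 0 reads on day 2 and 9 on day 6 (adjusted p = 0.0227, edgeR), 3 of 5 were called in the double mutant against 23.2%. The Fbln1 call was lost without either day 2 library or replicate 1 of day 6 of the double mutant (edgeR adjusted p 0.0553, 0.205 and 0.242). Fbln7 was higher on day 6 than on day 2 in every genotype by 2.17 ± 1.27, 3.42 ± 1.42 and 2.41 ± 1.27 in WT, W330R and the double mutant, none of which passed (edgeR adjusted p 0.226, 0.0942 and 0.186). The value in W330R was called without the filter (adjusted p = 0.0347, edgeR), by DESeq2 (adjusted p = 0.0314), with the replicate block (adjusted p = 0.0123, edgeR) and in a fit of the 2 conditions alone (adjusted p = 0.00626, edgeR). Without replicate 1 of day 2 the value in the double mutant became 6.02 and was called (edgeR adjusted p = 0.0274). Fbln5 differed by -0.62 ± 0.72, -0.02 ± 0.71 and -0.55 ± 0.71, within its error. When the change from day 2 to day 6 was compared between W330R and WT, 0 of the 5 tested members and 0.0895% of all genes passed (edgeR), and 0 of the 5 members had an unadjusted p under 0.05 or was called by DESeq2.

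From undifferentiated cells to day 2, Fbln2 fell in WT by 2.66 ± 0.41 (adjusted p = 1.11e-04) and in W330R by 1.80 ± 0.40 (adjusted p = 0.00204), and Efemp2 fell in WT by 1.10 ± 0.30 (adjusted p = 0.00801), as log2 fold changes of the edgeR quasi-likelihood test. The Efemp2 call was lost without replicate 2 of WT day 2 (log2 fold change -0.93, adjusted p = 0.0688, edgeR). Efemp2 in W330R was at -0.13 ± 0.30 (adjusted p = 0.746, edgeR). The difference of the change between the genotypes was 0.97 ± 0.43 for Efemp2, which did not pass (adjusted p = 0.314, edgeR). Of all genes, 1.87% passed in that comparison. With Efemp1, 3 of 6 members were called for this step in WT against 50.9% of all genes, and in W330R 2 of the 5 tested, Fbln2 and Fbln1, against 48.2%. The 6 include Fbln1, which passed the filter through WT libraries alone and was not called in WT. The Fbln1 call (adjusted p = 0.0223, edgeR) was lost on leaving out any of the 4 libraries (adjusted p 0.0534 to 0.118).

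Beside Efemp1 on chromosome 11, the 5 annotated genes on each side with a row in the counts included 3 protein-coding ones, Ccdc85a before it and Pnpt1 and Cfap36 after it, the others being pseudogenes. Pnpt1, a mitochondrial polynucleotide phosphorylase, ranged from 24.8 to 52.3 CPM over all libraries. Its log2 differences over days 2 to 6 were 0.22 ± 0.12 for W330R against WT (adjusted p = 0.179) and 0.11 ± 0.12 for the double mutant against WT (adjusted p = 0.587) by edgeR's quasi-likelihood test. Cfap36 differed by 0.26 ± 0.16 (adjusted p = 0.241) and 0.39 ± 0.16 (adjusted p = 0.133) in the same comparisons and test. Without 1 library some of these were called, as was Pnpt1 in W330R without replicate 2 of W330R day 2 (0.31, edgeR adjusted p = 0.0398). The same held for Cfap36 in W330R (0.44, adjusted p = 0.0323) and the double mutant (0.57, adjusted p = 0.0251) without replicate 1 of WT day 2, and in the double mutant without replicate 2 of its day 2 (0.51, adjusted p = 0.0314), all by edgeR. Ccdc85a had at most 6 counts in a library. For the double mutant against W330R, the values were -0.11 ± 0.11 for Pnpt1 and 0.13 ± 0.16 for Cfap36 beside the -4.52 of Efemp1, without a test.

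The 5 genes whose mean log2 CPM over the 11 conditions followed that of Efemp1 most closely were Fign, Plekha6, Kctd1, Phf21a and Slc6a6, with Pearson correlations of 0.968, 0.966, 0.962, 0.959 and 0.957 over conditions that share genotypes and stages. The highest value for another fibulin was 0.825. By Spearman correlation 1 of these 5, Plekha6, was again among the first 5. Plekha6 was at 22.2 and 8.34 CPM in W330R on day 6, at 9.87 and 6.51 in WT and at 1.93 and 1.30 in the double mutant. Its log2 differences over days 2 to 6 were 1.74 ± 0.35 for W330R against WT and -2.92 ± 0.37 for the double mutant against W330R. Its likeness to Efemp1 chose it, so these have no test.

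Lists of genes for the partners of fibulins were read against the share of all genes called, 14.3% higher and 14.8% lower in W330R than in WT over days 2 to 6. Of 17 tested genes of elastic fibres and microfibrils, 2 were called higher and 1 lower in W330R than in WT over days 2 to 6, with a median log2 fold change of 0.24 against 0.02 for all genes. By edgeR 0 were called in undifferentiated cells (1 at an unadjusted p under 0.05, 0 by DESeq2) or in the double mutant against WT (3 at an unadjusted p under 0.05, 3 by DESeq2). Of all genes, edgeR called 1.75% and 9.57% in these comparisons. Loxl1, a lysyl oxidase-like enzyme that works with Fbln5, was higher in W330R by 0.68 ± 0.09 (adjusted p = 1.85e-04, edgeR quasi-likelihood with Benjamini-Hochberg adjustment), with 473 and 461 CPM on day 6 against 327 and 353 CPM in WT and 342 and 285 CPM in the double mutant. Elastin itself, Eln, was lower in W330R (log2 fold change -1.4 ± 0.43, adjusted p = 0.0246, same test), with -2.20 within replicate 1 and -0.35 within replicate 2. Eln was at 56.3 and 53.1 CPM in W330R on day 6, against 180 and 57.6 CPM in WT and 258 and 123 CPM in the double mutant, divided between replicates as Fbln7 was. The call was lost in 6 of the 12 fits that left out 1 library (adjusted p 0.0528 to 0.0799), those without replicate 1 of WT day 2, 4 or 6, replicate 1 of W330R day 2 or 4, or replicate 2 of W330R day 6. The other gene called higher, the microfibril protein Mfap5, is named because it completes the count. It had 0 CPM in both WT libraries of day 2 and 4.63 and 2.30 CPM in W330R on day 6 against 1.82 and 0.583 CPM in WT (adjusted p = 0.00671, edgeR). Between the double mutant and W330R, 2 genes of the list were called higher (Eln, 1.84 ± 0.44, and Lox, the main lysyl oxidase, 1.15 ± 0.37) and 2 lower (Ltbp2, a microfibril protein, -1.91 ± 0.42, and Loxl1, -0.77 ± 0.09). Of all genes, 17.2% were called there. Hmcn1 and Hmcn2, the hemicentins that carry a fibulin module, did not exceed 1.37 and 3.79 CPM and were called in 0 of the comparisons with WT by edgeR (adjusted p 0.318 to 0.954) or DESeq2. At an unadjusted p under 0.05, 1 of the pair passed in undifferentiated cells and 0 in the averaged comparisons.

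**Figure D4:**
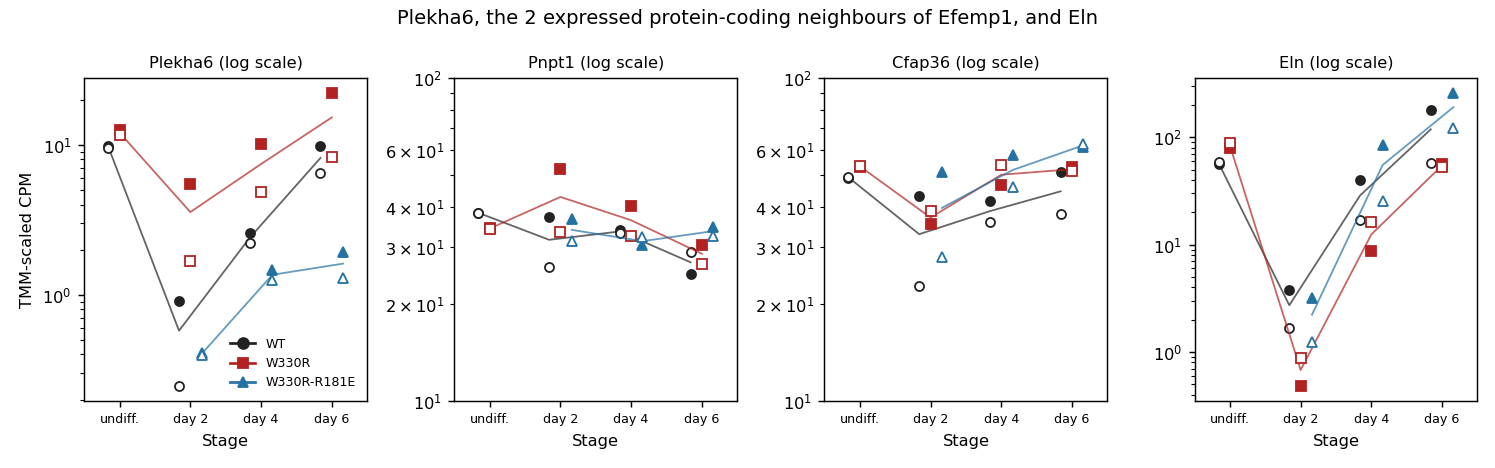
Levels in CPM with TMM-scaled library sizes (log scale) of Plekha6, of the neighbours Pnpt1 and Cfap36 and of Eln, by stage, with filled and open symbols for replicates 1 and 2 and lines through the means. Plekha6 is lowest in the double mutant on days 4 and 6, Pnpt1 and Cfap36 show no such order, and Eln in W330R reaches 56.3 and 53.1 CPM on day 6 against 258 and 123 CPM in the double mutant.

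Of 21 tested basement membrane and matrix partners, 6 were called higher and 6 lower in W330R than in WT over days 2 to 6 (median log2 fold change 0.12), where 29% of all genes were called. The largest increases, where the mean log2 CPM reached 1, were those of Adamts1, a protease that cuts versican and has Fbln1 as a cofactor (0.96 ± 0.16, adjusted p = 7.04e-04), Nid1, a nidogen that links laminin to collagen IV (0.93 ± 0.11, adjusted p = 7.93e-05), and Agrn, agrin (0.76 ± 0.22, adjusted p = 0.0186), by edgeR's quasi-likelihood test. With the same limit, the largest decreases were those of the collagen IV chains Col4a2 (-1.26 ± 0.19, adjusted p = 3.33e-04) and Col4a1 (-1.18 ± 0.21, adjusted p = 0.00116) and of Col15a1 (-1.11 ± 0.34, adjusted p = 0.0248), by the same test. Acan, aggrecan, with a mean log2 CPM of 0.46, lay under that limit and was also called lower (-5.94 ± 1.68, adjusted p = 0.0195, edgeR). At such a level the fitted value is no measure of size, and fits without 1 library were not examined for this gene. Acan is named after its values were seen. The call of Agrn was lost in 4 of the 12 fits without 1 library, those without replicate 2 of WT day 2, 4 or 6 or replicate 1 of W330R day 4 (adjusted p 0.0522 to 0.0685). That of Col15a1 was lost in 7, those without replicate 2 of WT day 2, 4 or 6, replicate 1 of W330R day 2, 4 or 6, or replicate 2 of W330R day 6 (adjusted p 0.0538 to 0.0759). In the double mutant against WT, 9.57% of all genes were called. Of the list 0 were called higher and 2 lower, Col4a1 (-0.73 ± 0.21, adjusted p = 0.0441, edgeR) and Col4a2 (-0.63 ± 0.19, adjusted p = 0.048, edgeR). Both were lost in a fit of these conditions alone (adjusted p = 0.203 and 0.208) and without replicate 2 of WT day 2, 4 or 6 or replicate 1 of the double mutant on day 2, 4 or 6 (adjusted p 0.102 to 0.155), and Col4a2 also without replicate 2 of the double mutant on day 6 (adjusted p = 0.0701). In the double mutant against W330R, 17.2% of all genes were called. Of the list, Col18a1 (1.37 ± 0.26) and Col4a2 (0.63 ± 0.19) were called higher, and Nid1 (-0.96 ± 0.11), Adamts1 (-0.76 ± 0.16), the laminin chains Lamb2 (-0.75 ± 0.15) and Lama5 (-0.75 ± 0.21) and versican, Vcan (-0.38 ± 0.11), lower. Lama5 and Vcan are named because they complete the count. In undifferentiated cells 0 were called by edgeR, against 1.75% of all genes, with 2 at an unadjusted p under 0.05 and 0 called by DESeq2.

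Adipocyte genes differed between the same libraries. Of the 8 markers 7 were called lower in W330R than in WT over days 2 to 6, among them Adipoq, adiponectin (-1.23 ± 0.20, adjusted p = 5.56e-04), and Fabp4, the adipocyte fatty acid binding protein (-1.24 ± 0.27, adjusted p = 0.00394), by edgeR's quasi-likelihood test. Of all genes, 14.8% were called lower in that comparison. In the double mutant 4 of the markers were called lower than in WT, where 9.57% of all genes were called either way. Against W330R 4 were called higher and 1 lower, where 17.2% of all genes were called either way. On day 6 Fabp4 stood at 1521 and 4507 CPM in WT, 577 and 758 CPM in W330R and 578 and 1656 CPM in the double mutant. Of 9 fibroblast markers, 4 were called higher in W330R than in WT, against 14.3% of all genes. Against W330R, the double mutant had 2 called higher and 4 called lower, where 17.2% of all genes were called either way. Of 4 endothelial markers, Cdh5 and Kdr did not exceed 2 and 8 counts, while Pecam1 reached 138 and Tek 647 counts. Their summed level over days 2 to 6 was 1.13 to 7.03 CPM in WT, 1.98 to 15.03 CPM in W330R and 1.19 to 7.04 CPM in the double mutant, and 10.4 to 24.1 CPM in undifferentiated cells. Tek was called higher in W330R than in WT over days 2 to 6 (1.68 ± 0.34, adjusted p = 0.00248, edgeR) and was lower in the double mutant than W330R (-1.29 ± 0.33). Pecam1, the other endothelial marker tested, did not follow Tek. It was at 0.07 ± 0.31 for W330R against WT (adjusted p = 0.892, edgeR) and at 0.41 ± 0.30 for the double mutant against W330R. Of 4 epithelial markers, Epcam was at 0 counts, Krt5 and Krt14 did not exceed 6 and 12 counts and Cdh1 reached 95 counts, with a summed level of 0.148 to 0.592 CPM in WT, 0.321 to 2.67 CPM in W330R and 0.328 to 1.73 CPM in the double mutant over days 2 to 6. Cdh1 was called higher in W330R than in WT (1.67 ± 0.53, adjusted p = 0.0296, edgeR). Tek and Cdh1 were named after their values were seen. The part of adipocytes or of cells with these other markers in the fibulin differences was not tested. Dnmt3a counts cannot separate the introduced from the endogenous gene here. Dnmt3a was at 130 CPM in WT (SD 26.6, n = 2), 131 CPM in W330R (SD 12.3, n = 2) and 97.1 CPM in the double mutant (SD 34.4, n = 2) on day 6. Averaged over days 2 to 6, its log2 difference was -0.45 ± 0.23 for W330R against WT (edgeR adjusted p = 0.163). For the double mutant it was -0.68 ± 0.23 against WT (edgeR adjusted p = 0.0747) and -0.24 ± 0.23 against W330R. Dnmt3a was called in 0 of the genotype comparisons averaged over days 2 to 6 or in undifferentiated cells, with edgeR adjusted p of 0.0747 to 0.995. In the double mutant against WT, 0 of the 3 tested methyltransferases were called by edgeR, 3 had an unadjusted p under 0.05 and 1 was called by DESeq2. Of the other methyltransferases Dnmt1 was called higher in W330R than in WT (0.36 ± 0.12, adjusted p = 0.0416, edgeR), Dnmt3b was not called, and Dnmt3l did not exceed 2 counts in a library.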

How the data were processed

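RNA of 22 libraries was sequenced, and the authors deposited whole read counts per gene symbol. The submitters' processing notes name kallisto, DESeq2 1.40 and GRCm39, so the counts may be rounded transcript estimates summed per gene. Whether strand was used is not given in the sources used here. In R 4.3.3, filterByExpr of edgeR 4.0.16 removed low genes, with a minimum count of 10 and a minimum of 15 over all libraries. The counts were TMM-scaled, and 1 quasi-likelihood model with a mean per condition was fitted to all libraries, so that conditions share the estimate of the spread. Calls were made in each of 14 contrasts where the p-value, adjusted over 14520 genes by Benjamini-Hochberg, was under 0.05. log2 CPM used a prior count of 2. Standard errors are the log2 fold change divided by the root of the F statistic.

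The members and gene lists were chosen with earlier results of these data known. All 6 members are named, and from each partner list at most 3 called genes per direction whose mean log2 CPM reached 1, beside the hemicentins, methyltransferases, 5 neighbours of Efemp1 on each side, the 5 genes most like it, Adipoq and Fabp4. Alternatives were RLE scaling, no filter, DESeq2 1.42.0, the replicate number as a block, fits of the contrast's conditions alone and leaving out each library. Fits were tested on simulated counts. 0 pairs of libraries were identical, 0 columns were left unused, and 93.9% of symbols matched GENCODE M21 (GRCm38), which served for lengths. Of sequences of 50 bases, 2.92% of those of Efemp2 and 0 of the other members' occur in other genes, and 0 members overlap another gene. Depth and the count floor are given with the levels.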

Additional observations from a re-analysis of the deposited data

How the results depend on the processing

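The 670 values recomputed for members comprised 597 that kept their direction and side of the threshold, or moved by less than the spread between replicates where no test was made. There were 35 that lost a call, 10 that gained one, 18 that changed sign and 10 without a test that moved further. Efemp1 kept its sign in each comparison under every alternative: without 1 library its log2 difference ran from -4.87 to -4.21 for the double mutant against W330R, from 2.15 to 2.65 for W330R against WT and from -2.41 to -1.85 for the double mutant against WT. Its rise and fall in WT stayed called under every alternative.

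DESeq2 called 528 genes between W330R and WT in undifferentiated cells, 1081, 1700 and 1754 on days 2, 4 and 6, 2272 for the double mutant against WT, and 129 and 672 for the differences of the change from day 2 to day 6 and from undifferentiated cells to day 2. The edgeR counts for the same were 254, 445, 891, 1095, 1390, 13 and 271. With the replicate block these became 392, 909, 1848, 1757, 2338, 24 and 510, and the numbers were not taken to pair the samples, since not every correlation of the deviations from the group means was over 0.1. Over days 2 to 6 it averaged 0.215, with 27 of 36 pairs of conditions above 0.1 and a lowest value of -0.0213, and between undifferentiated and later conditions it averaged -0.0139 with 0 of 18 above 0.1. Replicates of days 2 to 6 thus deviated together in most pairs, as a hint from the data and not from the design. The block gained Fbln7 in W330R and in the double mutant from day 2 to day 6 (3.76, adjusted p = 0.0123, and 2.74, adjusted p = 0.0309, edgeR) and the fit with the block changed no other call of a member. Fits of the contrast's conditions alone called 4043 genes in undifferentiated cells, 0, 0 and 51 on days 2, 4 and 6, 152 for the double mutant against WT, 843 in WT and 79 in the double mutant from day 2 to day 6, and 0 for the difference of that change, where edgeR counted 3862 and 3369 for the 2 time courses. At an unadjusted p under 0.05 the shared fit had 2637, 3354 and 975 genes on day 2, day 4 and for that difference. Without the filter that difference had 33 calls.

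Leaving out 1 library gave 48 to 58 calls in undifferentiated cells, 36 to 375, 42 to 1034 and 134 to 1476 on days 2, 4 and 6, 2978 to 4516 for W330R against WT, 1629 to 2473 for the double mutant against W330R and 495 to 2111 against WT. It gave 2109 to 3423, 1661 to 2642 and 1373 to 3853 from day 2 to day 6 in WT, W330R and the double mutant, 5538 to 6703 and 5161 to 5811 from undifferentiated cells to day 2 in WT and W330R, and 0 to 46 and 75 to 263 for the 2 differences of a change. A lone library is then assumed to vary like the other conditions.

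Signs turned for values that were not called, and the cause was not tested: Efemp2 between undifferentiated W330R and WT (0.0128 with RLE scaling, 0.0128 with DESeq2, 0.00574 in the undifferentiated libraries alone) and Fbln5 in W330R from day 2 to day 6 (0.00149 with RLE scaling, 0.00147 with DESeq2). Ranges without 1 library that crossed 0 for tested values were -0.0192 to 0.0152 for Efemp2 in undifferentiated cells, -0.67 to 0.0419 for Fbln5 in W330R against WT, and for the double mutant against WT -0.34 to 0.0917 for Fbln2, -0.60 to 1.46 for Fbln7 and -0.12 to 0.0856 for Nid1. From day 2 to day 6 they were -1.53 to 0.43 for Fbln5 in WT, -1.27 to 0.90 for Fbln5 in the double mutant and -0.61 to 0.77 for Fbln1 in W330R, a fitted value that depends on the prior count. From undifferentiated cells to day 2 they were -0.42 to 3.05 for Fbln7 in WT, and -0.39 to 0.0917 for Efemp2 and -0.64 to 0.30 for Fbln7 in W330R. For the double mutant against W330R, given without a test, they were -0.48 to 0.57 for Fbln1, -0.42 to 0.0418 for Agrn, -0.20 to 0.013 for Pnpt1 and -0.0371 to 0.27 for Cfap36.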
